A study of Sus scrofa with 2 samples.

Results

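The HSP70 chaperone system of pig back muscle was described here through 8 genes: HSPA8, HSPA4, HSPH1, DNAJA1, DNAJB1, BAG3, HSPB6 and HSF2. They are 8 of 27987 entries in the deposited table, found by their Ensembl pig gene identifiers and, for DNAJB1, by its symbol. The genes were chosen by role with the ratios between these same libraries already known, so their values are a description and carry no test. The tissue was longissimus dorsi, a long back muscle, from castrated male pigs (barrows) of the DLY cross, Duroc boars on Yorkshire-Landrace sows. The H30 pigs lived at a constant 30 °C and the CON pigs at a constant 22 °C, for 21 days, with 8 pigs per arm out of 16 animals from 8 litters, weighing 79.0 ± 1.5 kg per the labels. Each arm is represented by 1 library of polyadenylated RNA, and the labels do not say whether several pigs were pooled in it.

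HSP70 proteins bind unfolded stretches of other proteins and release them in a cycle driven by ATP. J-domain proteins such as DNAJA1 and DNAJB1 deliver clients and trigger ATP hydrolysis, while nucleotide exchange factors, among them the HSP110 proteins and the BAG family, open the cycle again. Small heat shock proteins hold damaged proteins without ATP, and heat shock factors switch many of these genes on under stress. In striated muscle, BAG3 links HSP70 to small heat shock proteins and helps to clear damaged proteins of the Z disc.

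The files give RPKM, reads scaled to the length of the gene and to the library total. From the steps between low values the library totals came out at 22863584 reads for H30 and 23608242 for CON. The 8 genes rested on at least 354 to 11794 reads in H30 and 313 to 11085 in CON, and all 8 passed the minimum mean of 1 RPKM that 13191 entries passed. Intervals are 95% Clopper-Pearson intervals of the H30 over CON ratio of RPKM. They cover counting error only, and PCR copies are not independent molecules. With 1 library per arm there is no replicate error, so the effects of heat, of the animals and of the library itself cannot be told apart. In whole muscle, fewer cells of a type and less RNA per cell cannot be told apart either. Fibre markers were high, with 11 of 18 listed ones matched, led by skeletal muscle actin ACTA1 at 65219 RPKM in H30 and 68749 RPKM in CON.

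Most of the 8 genes lay slightly higher in the heat library, and DNAJB1 lay lower. Of the 8 genes 7 had a higher level in H30, by RPKM ratios between 1.10 and 1.22, and DNAJB1 had a ratio of 0.77. Summed over the 8 genes, the level was 378 RPKM in H30 and 348 RPKM in CON, which is 0.0541% of all RPKM in H30 and 0.0486% in CON. On the log2(RPKM + 1) scale, which understates the differences of low genes, their median ratio was 0.15, against 0.05 over all genes compared. A log2 ratio above 0 was held by 58.8% of all genes compared.

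On that scale none of the 8 genes was at least 25% higher in H30, where 12.7% of all genes were, and DNAJB1 alone was at least 20% lower, where 7.77% of all genes were. None was 1.5-fold apart in either direction, against 3.44% of all genes higher and 2.37% lower. The counting interval lay above 1 for 7 of the genes and below 1 for DNAJB1, against 20.3% and 10.4% of all genes. Deep genes have narrow intervals, so that share depends on depth. It is also lowered by genes of high level for which too few reads were recovered. The typical gene was itself a little higher in H30, with a median RPKM ratio of 1.04. Of the 8 intervals, 4 (HSPH1, DNAJA1, BAG3 and HSPB6) lay above that value. The share of all genes with an interval above 1.04 was not counted, so this count has no background beside it. Of all genes past either limit, 62.0% were higher in H30 as deposited, 49.5% after centring on the median, 50.4% after trimmed mean rescaling and 69.8% when rescaled without the 10 highest genes. All 8 genes kept their direction under these 3 rescalings.

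**Figure D1:**
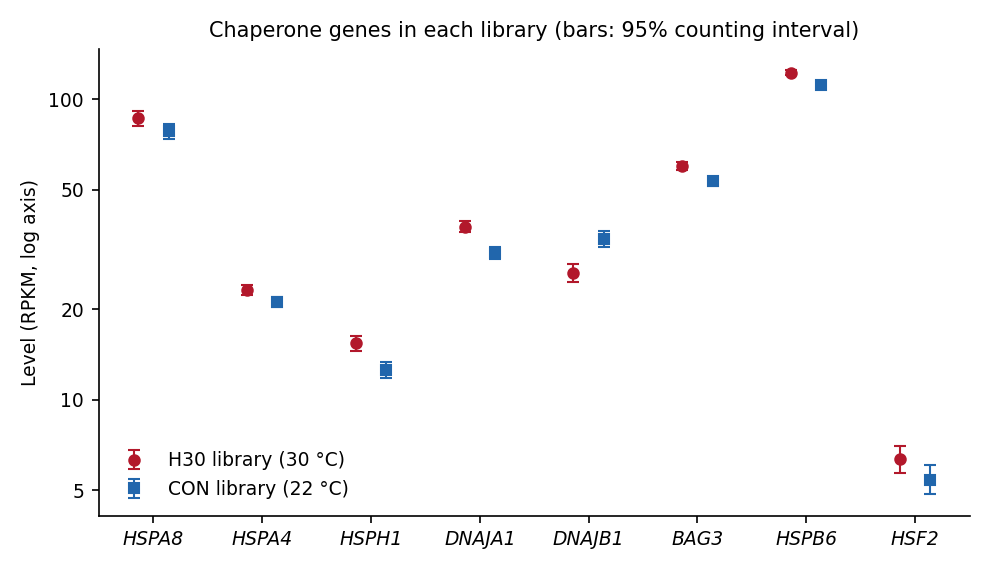
RPKM of the 8 genes (log axis) in the H30 library (circles) and the CON library (squares), 1 library each, with exact Poisson 95% counting intervals as bars. HSPB6 was highest at 123 RPKM in H30 and 112 RPKM in CON, HSF2 was lowest, and DNAJB1 is the gene whose H30 point lies below its CON point.

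HSPA8 (ENSSSCG00000015140) encodes the HSP70 protein that cells make all the time, also known as HSC70. It stood at 86.5 RPKM in H30 and 78.5 RPKM in CON, a ratio of 1.10 with an interval of 1.02 to 1.19 from at least 1278 and 1197 reads. The gene has near-identical processed copies in mammalian genomes, and how reads with several matches were counted is not stated, so its level is uncertain. HSPA9, the mitochondrial HSP70, had a ratio of 1.04 (1.001 to 1.09) at 60.3 RPKM in H30 and 57.7 RPKM in CON. HSPA5, the HSP70 of the endoplasmic reticulum, stood at 37.5 RPKM in H30 and 38.9 RPKM in CON, with an interval that holds 1. HSPA8 exceeded HSPA5 2.31-fold in H30 and 2.02-fold in CON, and the quotient of these values was 1.14 (1.03 to 1.27). Against HSPA9 the quotient was 1.06 (0.965 to 1.15), not detectable beyond counting error. HSPA13, an HSP70 relative of the secretory pathway, had the highest log2 ratio of the 6 measured HSP70 genes, 0.26, at only 1.247 RPKM in H30 and 0.874 RPKM in CON. Its RPKM ratio was 1.43 (1.07 to 1.91), so the added 1 RPKM alone kept it inside the limit of 25% higher. Of these 6 genes, 4 lay above 0, against 58.8% of all genes, and none passed a limit on the log2(RPKM + 1) scale. The stress-inducible HSPA1A, HSPA1B and HSPA6 are among 6 listed genes not analysed here.

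HSPH1 and HSPA4 are HSP110 proteins, large relatives of HSP70 that act on it as nucleotide exchange factors. HSPH1 (ENSSSCG00000009334), also called HSP105, stood at 15.4 RPKM in H30 and 12.6 RPKM in CON, a ratio of 1.22 (1.13 to 1.33). HSPA4 (ENSSSCG00000014292), also called APG-2, stood at 23.2 RPKM in H30 and 21.2 RPKM in CON, a ratio of 1.10 (1.04 to 1.16). Both were higher in H30, HSPH1 by more than HSPA4. HSPH1 reached 0.663 of the HSPA4 level in H30 and 0.595 of it in CON, a quotient of 1.11 (1.01 to 1.23). HSPA4 kept nearly the same level relative to HSPA8, at 0.269 in H30 and 0.270 in CON. HYOU1, the HSP110 of the endoplasmic reticulum, had a log2 ratio of 0.13, while HSPA4L was below the minimum level, at 0.250 RPKM in H30 and 0.349 RPKM in CON.

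The 2 J-domain genes lay on opposite sides. DNAJA1 (ENSSSCG00000011000), a class A J-domain protein of the cytosol, stood at 37.7 RPKM in H30 and 30.9 RPKM in CON, a ratio of 1.22 (1.15 to 1.30) from 2043 and 1727 reads. DNAJB1 (ENSSSCG00000013784), the class B protein also called HSP40, which helps HSP70 to take aggregates apart, stood at 26.4 RPKM in H30 and 34.3 RPKM in CON. Its ratio was 0.77 (0.701 to 0.845) from 789 and 1058 reads, or -0.36 on the log2 scale. DNAJA1 was thus the higher of the pair in H30 and the lower in CON. DNAJA1 over DNAJB1 was 1.43 in H30 and 0.900 in CON, and this quotient of 1.59 (1.42 to 1.77) does not depend on how the libraries are scaled. Relative to HSPA8, DNAJB1 was at 0.306 in H30 and 0.438 in CON, a quotient of 0.698 (0.619 to 0.789), and DNAJA1 was at 0.436 in H30 and 0.394 in CON, a quotient of 1.11 (1.001 to 1.23).

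The class A and B J-domain genes as a whole were divided in direction, as all genes compared were. Of 11 compared, 6 lay above 0 and 5 below, where 58.8% of all genes lay above 0. Their median log2 ratio of 0.01 turned to -0.04 after centring and -0.05 after trimmed mean rescaling. DNAJB1 was the lowest of the 11 and DNAJA1 the highest. The following single genes were picked after their values were seen. DNAJB5 stood at 24.5 RPKM in H30 and 27.0 RPKM in CON (ratio 0.910, 0.856 to 0.967), DNAJB4 at 42.9 RPKM in H30 and 45.4 RPKM in CON (ratio 0.945, 0.868 to 1.03) and DNAJB2 at 30.9 RPKM in H30 and 30.8 RPKM in CON. The lower level of DNAJB1 went beyond each of these: its quotient was 0.846 (0.758 to 0.945) against DNAJB5, 0.815 (0.720 to 0.923) against DNAJB4 and 0.767 (0.672 to 0.875) against DNAJB2. The other class B genes compared lay on both sides of 1. DNAJB9 had a ratio of 1.22 (1.10 to 1.35) and DNAJB12 of 1.15 (0.955 to 1.39). For DNAJB14 it was 1.06 (0.778 to 1.43) and for DNAJB11 0.877 (0.745 to 1.03). The interval of DNAJB11 overlaps that of DNAJB1 (0.701 to 0.845), and no quotient of DNAJB1 against DNAJB11 was computed. DNAJA2, the other cytosolic class A gene measured, was at 27.2 RPKM in H30 and 27.4 RPKM in CON, and DNAJA1 exceeded it 1.39-fold in H30 and 1.13-fold in CON (quotient 1.23, 1.11 to 1.37). DNAJA4 and DNAJB6 are not analysed here. Among 18 compared class C genes, a mixed family that shares only the J domain, 13 lay above 0 with a median of 0.09. DNAJC16 was the only one past a limit on the log2(RPKM + 1) scale, at 1.96 RPKM in H30 and 1.248 RPKM in CON, and DNAJC25 was the lowest, at 4.25 RPKM in H30 and 5.40 RPKM in CON. The RPKM ratio of DNAJC25 was 0.787, which is past 20% lower without the added 1 RPKM, and its interval of 0.581 to 1.06 holds 1.

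**Figure D2:**
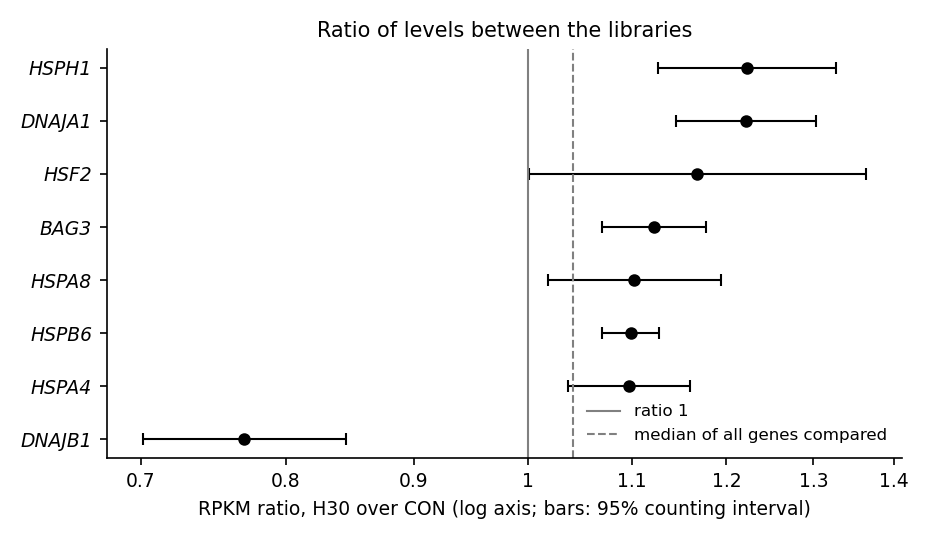
H30 over CON ratio of RPKM (log axis) for the 8 genes, 1 library per arm, with 95% Clopper-Pearson counting intervals as bars. The solid line marks a ratio of 1 and the dashed line the median of all genes compared, 1.04; the interval of DNAJB1 lies wholly below both, while those of HSPA8, HSPA4 and HSF2 cross the dashed line.

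BAG3 (ENSSSCG00000010686), the stress-inducible BAG protein, stood at 60.0 RPKM in H30 and 53.5 RPKM in CON, a ratio of 1.12 (1.07 to 1.18). BAG1, its relative that couples HSP70 to the proteasome, stood at 28.4 RPKM in H30 and 25.3 RPKM in CON, a ratio of 1.12 (1.06 to 1.20). BAG3 over BAG1 was 2.11 in H30 and 2.12 in CON (quotient 0.999, 0.924 to 1.08), so no difference between these relatives was detectable. BAG3 over HSPA8 was likewise 0.694 in H30 and 0.681 in CON (quotient 1.02, 0.929 to 1.12). Of the 6 exchange factors compared, 5 lay above 0, against 58.8% of all genes. Their median log2 ratio was 0.16, against 0.05 over all genes compared. This list median was 0.11 after centring, 0.10 after trimmed mean rescaling and 0.21 when rescaled without the 10 highest genes. SIL1, the exchange factor of HSPA5, was the highest at 4.12 RPKM in H30 and 2.38 RPKM in CON, a ratio of 1.73 whose interval of 1.06 to 2.87 rests on at least 47 and 28 reads. HSPBP1, another exchange factor of HSP70, was the lowest, at 8.79 RPKM in H30 and 9.12 RPKM in CON.

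Of 5 compared co-chaperones listed for HSP70 client handling, 4 lay above 0, against 58.8% of all genes. At least 25% higher in H30 were 2 of them, against 12.7% of all genes. ST13, the HSP70 interacting protein Hip, stood at 187 RPKM in H30 and 149 RPKM in CON, a ratio of 1.26 (1.22 to 1.30). STIP1, known as Hop, which bridges HSP70 and HSP90, stood at 77.0 RPKM in H30 and 61.3 RPKM in CON, a ratio of 1.26 (1.20 to 1.32). Relative to HSPA8 the quotients were 1.14 (1.05 to 1.24) for ST13 and 1.14 (1.04 to 1.248) for STIP1. STUB1, the ubiquitin ligase CHIP that marks HSP70 clients for breakdown, was at 110 RPKM in H30 and 109 RPKM in CON, with an interval of 0.954 to 1.07. TOMM34 was the lowest of the 5, at 3.69 RPKM in H30 and 4.25 RPKM in CON, and its interval holds 1.

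HSPB6 (ENSSSCG00000023498), also called HSP20, is a small heat shock protein of skeletal, cardiac and smooth muscle. It had the highest level of the 8 genes, 123 RPKM in H30 and 112 RPKM in CON, a ratio of 1.10 (1.07 to 1.13) from at least 11794 and 11085 reads. The length recovered for this entry was at least 4206 bases, which is longer than the whole span of the RefSeq HSPB6 gene in another assembly, Sscrofa11.1, where it lies between LIN37 and PROSER3. What else the entry covers is not stated, so the level cannot be credited to HSPB6 alone. HSPB8, the small heat shock protein that binds BAG3, stood higher still, at 375 RPKM in H30 and 361 RPKM in CON, a ratio of 1.04 (1.01 to 1.06). HSPB6 over HSPB8 was 0.327 in H30 and 0.309 in CON (quotient 1.06, 1.02 to 1.10), and BAG3 over HSPB8 was 0.160 in H30 and 0.148 in CON (quotient 1.08, 1.02 to 1.14). HSPB1, CRYAB, HSPB2, HSPB3 and HSPB7 are not analysed here.

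BAG3, HSPA8, HSPB8 and STUB1 act together in chaperone-assisted selective autophagy, which removes damaged filamin at the Z disc. Of 7 compared genes of that route, 5 lay above 0, against 58.8% of all genes. Their median log2 ratio of 0.05 was -0.01 after trimmed mean rescaling. SQSTM1, the autophagy receptor p62, was the highest at 250 RPKM in H30 and 211 RPKM in CON (ratio 1.19, 1.15 to 1.22). The client FLNC, muscle filamin, was the lowest at 275 RPKM in H30 and 320 RPKM in CON (ratio 0.859, 0.845 to 0.874). SYNPO2, which works with BAG3 in this route, was also lower, at 134 RPKM in H30 and 146 RPKM in CON (ratio 0.916, 0.896 to 0.936), and the HSPB8 ratio of 1.04 was no higher than the median of all genes compared.

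HSF2 (ENSSSCG00000004238), a heat shock factor that can pair with HSF1 on heat shock genes, had the lowest level of the 8, at 6.34 RPKM in H30 and 5.43 RPKM in CON. Its ratio was 1.17, and the interval of 1.0002 to 1.36, from 354 and 313 reads, reached down almost to 1. HSF1, the main factor of the heat response, was at 38.3 RPKM in H30 and 38.1 RPKM in CON, a ratio of 1.01 (0.914 to 1.11). HSF2 was at 0.165 of HSF1 in H30 and at 0.142 in CON, but the quotient of 1.16 had an interval of 0.971 to 1.39, so a difference between these factors was not detectable at this depth. HSF2BP, a protein first found as a partner of HSF2, was the lowest of its list, at 13.3 RPKM in H30 and 16.5 RPKM in CON (ratio 0.807, 0.708 to 0.919). HSBP1L1 was the highest of the list, at 2.45 RPKM in H30 and 1.58 RPKM in CON, with an interval of 0.899 to 2.71. HSF5 was listed at 0 in both libraries.

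Of 20 compared genes known as HSF1 targets, 15 lay above 0 and 6 are among the 8 genes described here. The 14 others had a median log2 ratio of 0.14, with 10 above 0, 4 at least 25% higher and none 20% lower. These 4 were the cytosolic HSP90 genes HSP90AB1 (105 RPKM in H30 and 75.8 RPKM in CON) and HSP90AA1 (280 RPKM in H30 and 212 RPKM in CON), STIP1, and ZFAND2A, a proteasome-associated protein (5.50 RPKM in H30 and 4.12 RPKM in CON). The HSP90 pair is closely related and could share reads. DNAJB1 was the lowest of the 20 genes, and the next lowest, CHORDC1, an HSP90 co-chaperone picked after its value was seen, had an interval of 0.769 to 1.12. Over all 10 lists, 61 other genes of the system were compared. On the log2(RPKM + 1) scale 42 lay above 0, 8 were at least 25% higher and none was 20% lower. After centring on the median, as after trimmed mean rescaling, 5 were at least 25% higher and 2 at least 20% lower. Their median log2 ratio as deposited was 0.08, against 0.05 over all genes compared. Of all genes compared, 58.8% lay above 0, 12.7% were at least 25% higher and 7.77% at least 20% lower.

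**Figure D3:**
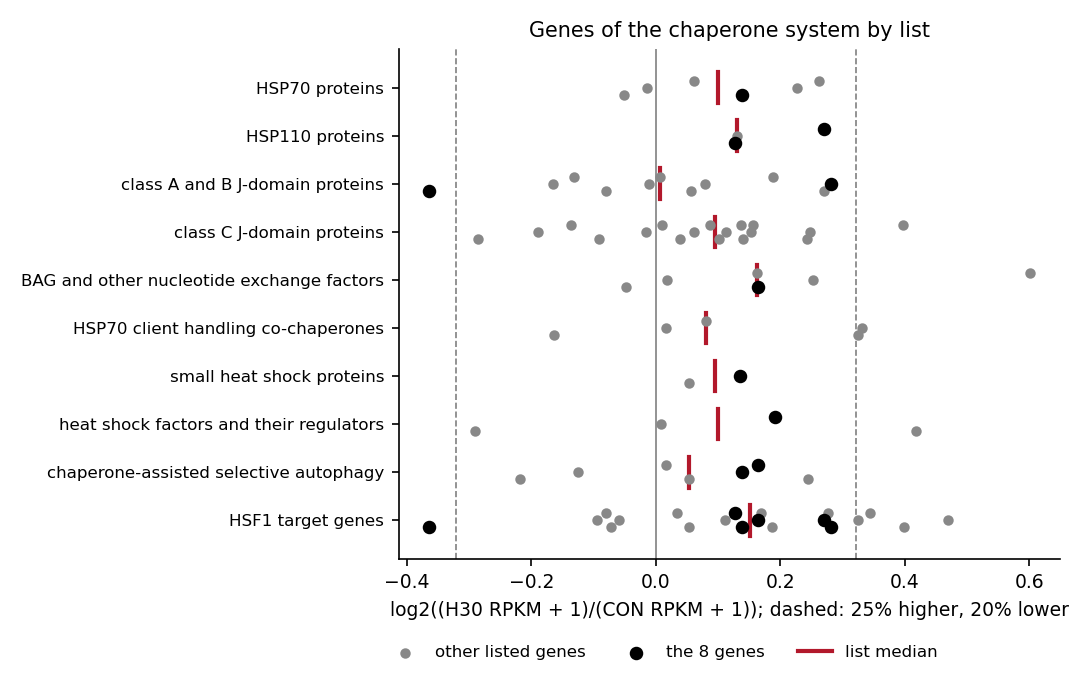
Log2((H30 RPKM + 1)/(CON RPKM + 1)) of every compared gene in 10 lists of the chaperone system, 1 library per arm; black points are the 8 genes, grey points the other listed genes, red bars the list medians and dashed lines the limits of 25% higher and 20% lower, and vertical offsets within a list only separate points. DNAJB1, at -0.36, is the only point left of the lower dashed line, and SIL1, at 0.60, lies farthest to the right.

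The order of levels was HSPB6, HSPA8, BAG3, DNAJA1, DNAJB1, HSPA4, HSPH1 and HSF2 in H30. It was the same in CON but for DNAJB1, which there stood above DNAJA1. Every neighbour in either order differed beyond counting error. The closest were DNAJB1 over HSPA4 in H30, at 1.14 (1.05 to 1.23), and DNAJB1 over DNAJA1 in CON, at 1.11 (1.03 to 1.20). The gap in level from HSPB6 to HSF2 was 19.3-fold in H30 and 20.6-fold in CON. The places of HSPB6 and HSPA8, and this gap, carry the limits on their levels given above.

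The genes other than DNAJB1 kept close proportions to each other. All 28 pairs were compared by the quotient of their level ratios, with a normal interval on the log scale from the reads of both genes. The interval left out 1 in all 7 pairs that hold DNAJB1 and in 6 of the other 21. Each of these 6 holds HSPH1 or DNAJA1 as the gene with the larger H30 over CON ratio, and their quotients were at most 1.11 in favour of that gene. HSPH1 and DNAJA1 themselves kept the ratio 0.408 in both libraries. The intervals were not adjusted for the number of pairs. The 7 pairs that hold DNAJB1 share its reads and are not independent. No such count was made over pairs drawn from all genes, so how usual these counts are was not tested.

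Among the 13191 genes compared, the log2 ratio of DNAJB1 ranked at place 825 from the lowest, so 6.25% of genes were as low or lower. Among the 6416 genes with a mean of at least 5 RPKM this share was 3.90%. Among all genes compared, DNAJA1 was matched or exceeded by 15.8% of genes, HSPH1 by 16.8%, HSF2 by 25.6%, BAG3 by 29.8%, HSPA8 by 33.9%, HSPB6 by 34.5% and HSPA4 by 35.8%. Among genes with a mean of at least 5 RPKM these shares were, in the same order, 9.87%, 10.8%, 19.4%, 23.9%, 28.5%, 29.2% and 30.8%. All 8 lay inside the range that held 95% of genes, -0.57 to 0.66. With 2 libraries a pattern is 1 ratio. The genes nearest to HSPA8 in log2 ratio, among 603 others with a symbol and a mean of at least 50 RPKM, were HNRNPH1 and HNRNPU, RNA-binding proteins, both at 0.14.

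**Figure D4:**
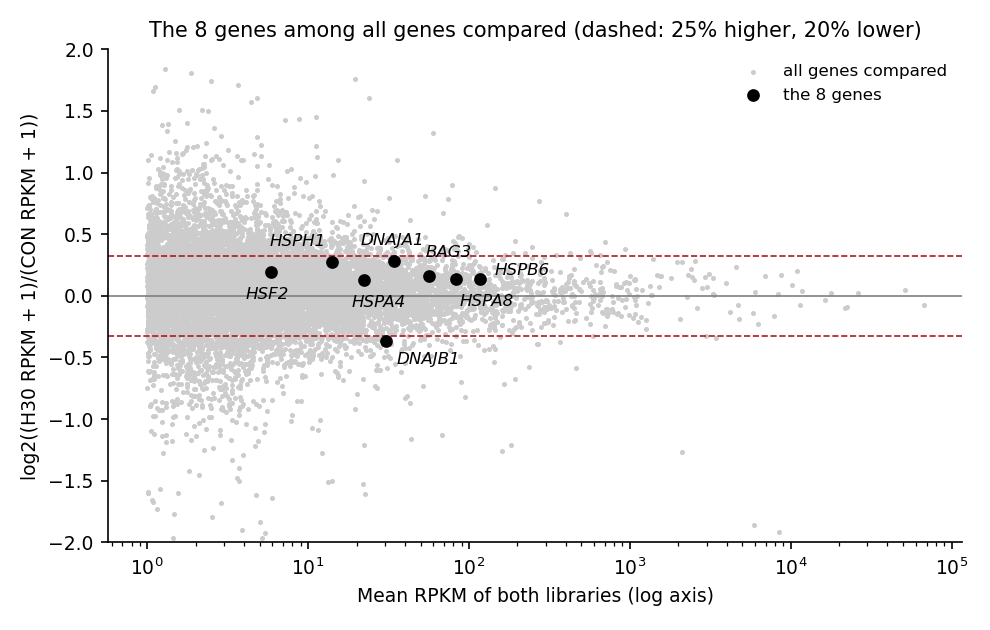
Log2((H30 RPKM + 1)/(CON RPKM + 1)) against mean RPKM (log axis) for 13191 genes (grey) with the 8 genes in black and the limits of 25% higher and 20% lower as dashed lines; 12 genes lie outside the vertical axis. DNAJB1 sits just below the lower dashed line and the other 7 genes between 0.13 and 0.28.

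Markers of other cell types also differed between the libraries, in most lists in both directions. Summed over the matched markers, macrophage genes (5 of 8) stood at 14.4 RPKM in H30 and 10.9 RPKM in CON. Of these, LYZ (3.30 RPKM in H30 and 1.09 RPKM in CON) and CD68 (5.36 RPKM in H30 and 3.61 RPKM in CON) lay above 0 on the log2 scale, and MRC1, CD14 and CSF1R below it. Endothelial genes (4 of 8) stood at 143 RPKM in H30 and 125 RPKM in CON, a sum made mostly of PECAM1 (127 RPKM in H30 and 111 RPKM in CON). Of these 4 genes 3 lay above 0, and KDR lay below it (ratio 0.909, 0.800 to 1.03). Smooth muscle and pericyte genes (5 of 8) stood at 123 RPKM in H30 and 107 RPKM in CON, a difference carried by ACTA2 (67.9 RPKM in H30 and 52.0 RPKM in CON) and ABCC9, while CNN1 had a ratio of 0.875 (0.811 to 0.944), KCNJ8 of 0.949 and PDGFRB of 1.02.

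Fibroblast genes (8 of 10) stood at 881 RPKM in H30 and 975 RPKM in CON, with 5 of 8 below 0. Adipocyte genes (5 of 10) stood at 56.7 RPKM in H30 and 59.1 RPKM in CON, a sum made mostly of PLIN4, which was higher (39.6 RPKM in H30 and 33.7 RPKM in CON). The median log2 ratio of the adipocyte list was -0.19, with CIDEC at a ratio of 0.460 (0.361 to 0.583) and PLIN1 at 0.661 (0.4501 to 0.962). Lymphocyte genes (8 of 10) stood at 8.21 RPKM in H30 and 7.15 RPKM in CON, but of the 4 compared CD2 (ratio 2.41) and NKG7 (1.38) lay above 0, and CD8A (0.409) and CD3D (0.817) below it. Red blood cell genes (3 of 6) stood at 113 RPKM in H30 and 89.5 RPKM in CON, nearly all of it HBB, with SLC4A1 listed at 0 in H30. Fibre genes summed to 140732 RPKM in H30 and 146135 RPKM in CON, with 6 of 11 above 0. The part of these markers in the values of the 8 genes was not tested.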

How the data were processed

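The deposited table holds 1 RPKM value per gene and library, computed by the authors. Bowtie, TopHat 1.4.0, Cufflinks 1.3.0 and the build Sscrofa10.2 are named, with no role given, per the submitters' processing notes. The read counter, the gene lengths and the use of strand are not given in the sources used here, so overlapping and antisense genes may share reads. Symbols were matched by Ensembl identifier for 11374 entries. No genome of that build was used, so no coordinates or sequences are printed, and a planned look at promoter letters was not run.

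Whole reads were recovered from the values. A read was worth 1.03 times as much RPKM in H30 as in CON, and with that factor 99.9% of 13134 low entries gave a pair of at most 1000 reads (0.282% with a wrong factor). The largest library total that made gene lengths whole within 0.01 bases did so for 69.9% of 6601 entries scanned. Reads are the smallest pair that gives a whole length, so intervals are wide rather than narrow, for HSPA8 in particular. The steps were tested on simulated data.

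The effect was log2((H30 RPKM + 1)/(CON RPKM + 1)) for the genes that averaged 1 RPKM or more, with limits of 25% higher and 20% lower. The genes named were the 8, each listed gene past a limit and the ends of each list; others are said to be picked later or stand beside a gene of like role, also picked later. The 8 genes, the lists, the fold and the comparisons were chosen with earlier results of these data known. Python 3.11.15, NumPy 2.4.6, SciPy 1.17.1, pandas 2.3.3 and Matplotlib 3.10.9 were used.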

Additional observations from a re-analysis of the deposited data

How the results depend on the processing

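No paired analysis was possible because each arm has 1 library, and for the same reason no library could be left out. Recomputing gave 64 log2 ratios of the 8 genes. They include changes of filter and the summing of entries of a symbol, which could not move a gene's own ratio here and repeat the main value. Of the 64 none changed sign and 61 moved by less than the counting interval. The other 3 were HSPB6 (0.13), at 0.085 after centring, 0.075 after trimmed mean rescaling and 0.18 when rescaled without the 10 highest genes. DNAJB1 stayed at least 20% lower under every scaling and pseudocount, narrowly (-0.32) with a pseudocount of 5 and without the 10 highest genes, where 1 gene, DNAJA1 (0.32), came to be 25% higher. At 1.5-fold and at 2-fold 0 of the 8 were lower, and by the counting interval 7 were higher. For all genes, 1674 higher and 1025 lower became 431 and 334 at a pseudocount of 5, 2809 and 1607 with no filter, 475 and 336 with a mean of at least 5 RPKM, 454 and 313 at 1.5-fold, 83 and 77 at 2-fold, and 2677 higher by the counting interval, a setting chosen for all genes after seeing the data. For the 61 other genes of the system, 8 higher and 0 lower became 9 and 1 at a pseudocount of 0.1, 3 and 0 at a pseudocount of 5, 5 and 2 after centring and after trimmed mean rescaling, 4 and 0 with a mean of at least 5 RPKM, 1 and 0 at 1.5-fold, 0 and 0 at 2-fold, and 21 and 4 by the counting interval. Stricter filters and folds keep fewer genes, and dropping the filter adds genes. By arithmetic, a larger pseudocount shrinks every log2 ratio, and centring shifts all of them by the same amount. For the other settings the cause was not tested. Of 80 recomputed list medians 4 changed sign, 3 of them for class A and B J-domain genes. Depth limits HSF2 most among the 8, since its interval spans 1.0002 to 1.36.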
